A study of Arabidopsis thaliana with 6 samples.

Results

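Transcripts of whole Arabidopsis thaliana seedlings were compared between 2 irradiated ago2 mutant lines, ago2a and ago2c, and the irradiated Columbia-0 wild type (WT), so that 3 of the 6 arrays of the series enter the comparison. The arrays were taken by their titles, and the other 3 hold mock-treated ago2a, ago2c and WT. At an age of 14 days the seedlings were given 200 Gy from a gamma source (4 hours, 50 Gy in each hour), and RNA was extracted 24 hours later. Each array carries RNA pooled from 3 independent batches of at least 10 seedlings, so each condition has 1 array and no replicate of its own. The ago2 alleles are not given in the sources used here. Of 20171 loci tested, 6870 (34.1%) were lower and 9762 (48.4%) higher than WT in both irradiated ago2 lines. At 2-fold or more, 1076 loci (5.33%) were lower and 63 (0.312%) higher in both lines.

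ARGONAUTE2 (AGO2) binds small RNAs and is known in Arabidopsis for defence against viruses and for binding small RNAs made at sites of DNA breakage. Gamma radiation breaks DNA, and plants answer through the transcription factor SOG1, which switches on repair genes and cell cycle inhibitors. The young root, which makes up part of a whole seedling, has its own gene programmes: the endodermis lays down a Casparian strip of lignin and later suberin, epidermal cells grow root hairs, and both layers hold the transporters that take up nutrients.

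Between 70.49% and 73.36% of probes were well above background on an array, and none was saturated. The number of arrays limits the precision of each value. The differences between probes of the same locus divided the arrays. Irradiated ago2a and both ago2c arrays formed one set, and both WT arrays and mock ago2a the other. The sets also differed in raw signal. Median processed signal was 296.5 on irradiated ago2a, 249.5 on mock ago2c and 229.6 on irradiated ago2c. On mock WT, irradiated WT and mock ago2a it was 419.6, 419.2 and 468.7. Whether this bears on the counts of lower loci was not tested. Across 5615 loci with several bright probes, the difference between probes moved by more than 2-fold in 0.445% of loci between irradiated ago2a and irradiated ago2c. Between irradiated ago2a and irradiated WT that share was 12.8%, and between irradiated ago2c and irradiated WT it was 15.1%. The genotype difference after irradiation therefore cannot be told apart from these array sets. The slides divided differently, with WT and ago2a on slide 1 and ago2c on slide 2, so that ago2a gives the value within 1 slide. Levels below are processed signals in percent of the 75th percentile of all probes on the same array, and refer to irradiated seedlings unless mock is named. Each ago2 line is set against the same WT array, so agreement of the lines is not independent evidence.

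The level of AGO2 itself checks the labels. AGO2 (AT1G31280, chromosome 1) had 0.696% in ago2a and 0.366% in ago2c, against 24.2% in WT. Both ago2 arrays were not well above background, which makes AGO2 at least 24.8-fold lower in ago2a and at least 16.9-fold lower in ago2c. For a dim array this bound uses the signal of its dimmest probe that still passed the background test, or the probe's own where that is higher. Calls at 2-fold use the measured signals, so a dim locus can be called although its bound is under 2-fold. In mock seedlings AGO2 had 0.289% and 0.913% in ago2a and ago2c, neither well above background, against 11.5% in WT. The neighbouring gene AGO3 (AT1G31290), the closest relative of AGO2, had 10.9% and 8.66% on its brighter probe in ago2a and ago2c, against 14.8% in WT. Its other probe stood at 135% of WT in ago2a and 57.7% in ago2c, so the 2 probes differ in direction for ago2a.

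Many more loci were lower than higher in the irradiated mutants. In ago2a alone 253 loci (1.25%) were at least 2-fold higher and 1212 (6.01%) lower than WT, and in ago2c 173 (0.858%) were higher and 1988 (9.86%) lower. A limma fit of 4 group means over all 6 arrays, in which the spread between ago2a and ago2c stands in for replicates, called 0 loci (0%) at an adjusted p under 0.05. The smallest adjusted p was 0.24, and 1559 loci (7.73%) had an unadjusted p under 0.05. No locus below passed the adjusted test, and each "higher" or "lower" describes these arrays. The p-values measure only the spread between these pooled samples. The median difference of all loci was 0.06 in ago2a and 0.07 in ago2c (log2), and 0.20 and 0.29 when arrays were scaled to their median instead. Under that scaling 109 loci were higher and 797 lower in both lines, and under another background correction (normexp) 24 were higher and 395 lower.

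**Figure D1:**
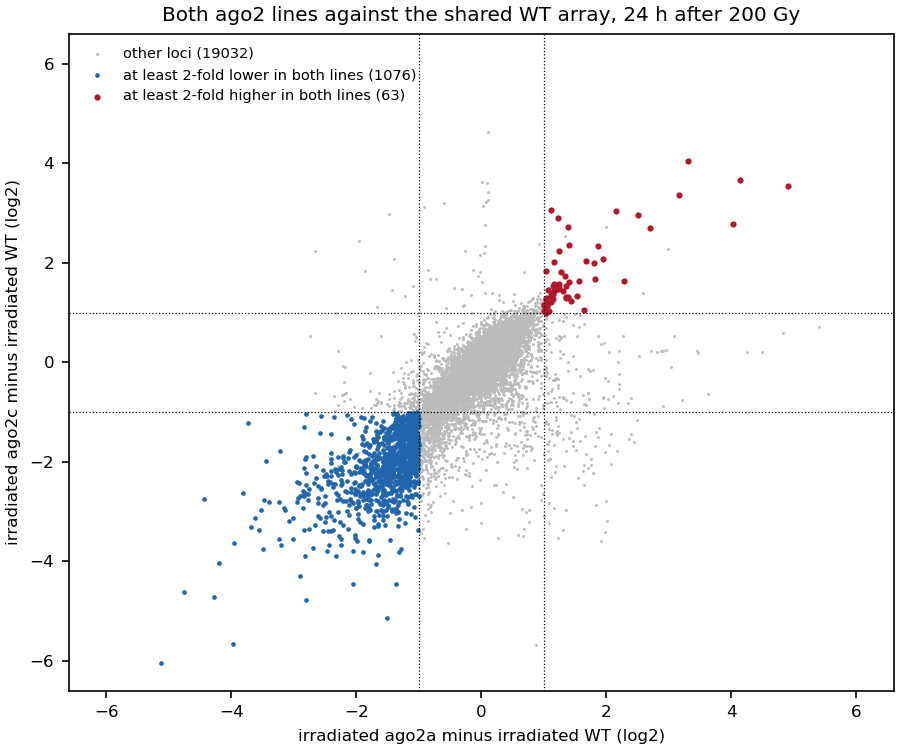
Each point is 1 of 20171 loci, with the log2 difference of irradiated ago2a minus irradiated WT on the horizontal axis and of irradiated ago2c minus irradiated WT on the vertical axis. The 1076 loci at least 2-fold lower in both lines (blue) far outnumber the 63 higher ones (red), and both axes share the 1 irradiated WT array, which by itself places points along the diagonal.

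Loci read by several probes were described first. Of the 1076 lower loci, 167 had several bright probes, and in 136 of these every bright probe was at least 2-fold lower in both lines. The 10 named from them lay at least 3.70-fold lower in ago2a and 3.87-fold lower in ago2c, apart from AT4G33610, by the brightest probe. A second probe gave smaller differences in ago2a for EDA4 (-1.14), AT5G26260 (-1.57) and CYP705A25 (-1.69, dim in both ago2 lines; log2). AGP30 (AT2G33790), an arabinogalactan protein of the root cell wall, had 14.6% in ago2a and 12.6% in ago2c, against 69.1% in WT, a log2 difference of -2.35 ± 0.22 (SE, 2 ago2 arrays against 1 WT array; limma adjusted p = 0.62). Its mock levels were 59.4% and 48.1% in ago2a and ago2c, against 59.97% in WT. The irradiated mutants thus stood apart from the other 4 arrays.

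AT1G52060 and AT1G52050, neighbours on chromosome 1, were likewise lowest on the irradiated ago2 arrays. AT1G52060 had 2.69% in ago2a and 2.25% in ago2c, against 30.3% in WT. AT1G52050 had 8.22% and 7.15% in ago2a and ago2c, against 50.4% in WT. In mock seedlings AT1G52060 was near WT in ago2a (27.2%, against 24.3% in WT) but lower in ago2c (7.10%). AT5G26260 had 10.6% and 4.62% in ago2a and ago2c, against 51.5% in WT. AT5G54370 had 18.5% and 16.5%, against 78.1% in WT. CYP705A25 (AT1G50560), a cytochrome P450 gene, had 3.02% and 1.83%, against 11.2% in WT. EDA4, AT5G43520 and AT5G33355 had differences between -1.89 and -2.78 (log2) in the single lines. AT4G33610 was not well above background in either ago2 line and was at least 2.76-fold lower in ago2a and at least 1.89-fold lower in ago2c. Across these 10 loci, mock ago2a held between 85.4% and 139% of the WT mock level, and mock ago2c between 29.2% and 80.2%.

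**Figure D2:**
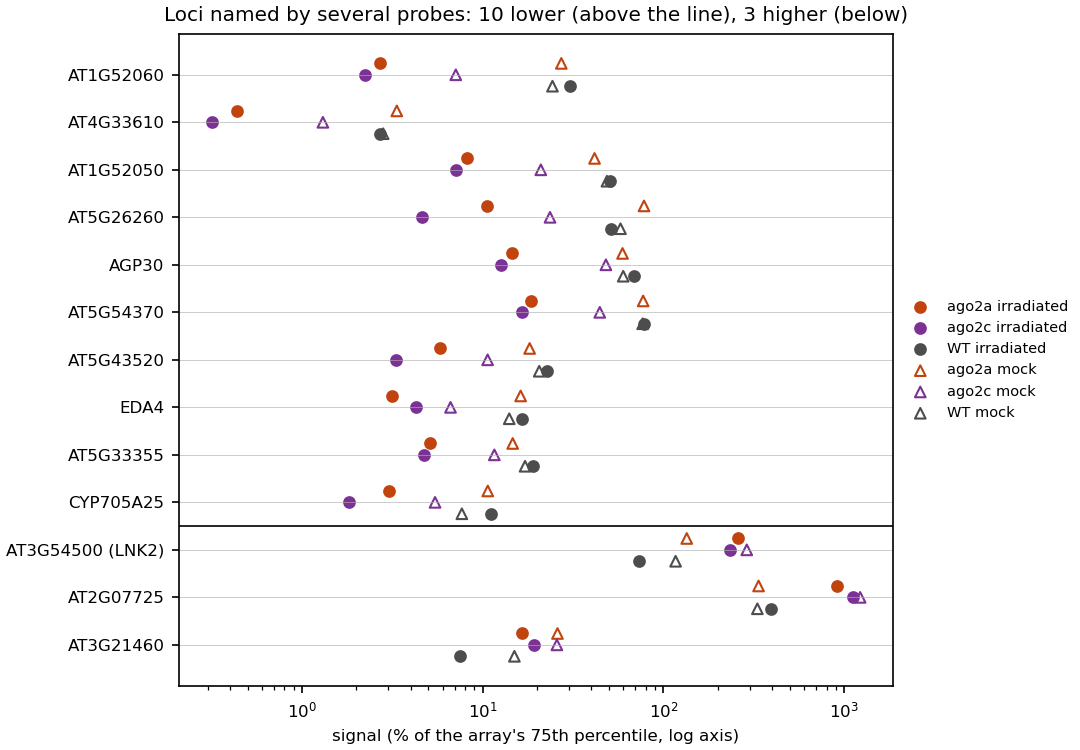
Signal of the 13 loci named from several probes on all 6 arrays, in percent of the array's 75th percentile on a log axis, with ago2a above ago2c above WT in each row. Filled circles are irradiated and open triangles mock seedlings, and AT4G33610 was not well above background on the irradiated ago2 arrays and on mock ago2c. In the 10 upper loci irradiated ago2a and ago2c lie left of every other array, and in LNK2 and AT2G07725 mock ago2c lies with the irradiated ago2 arrays.

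Casparian strip and endodermis genes were among the groups with the lowest values. Of 10 tested, 8 were at least 2-fold lower in both lines, against 5.33% of all loci, with medians of -1.44 in ago2a and -1.90 in ago2c (log2). In mock seedlings the medians were 0.15 and -0.41. CASP1, one of the scaffold proteins that place the strip, had 52.9% in ago2a and 34.1% in ago2c, against 152.3% in WT. PER64, the peroxidase that polymerises lignin at the strip, had 27.4% in ago2a and 15.4% in ago2c, against 89.2% in WT. Mock seedlings had 97.4% and 52.5% of PER64 in ago2a and ago2c, against 78.9% in WT. CASP4 had 1.13% and 0.293% in ago2a and ago2c, neither well above background, against 7.97% in WT, and was at least 7.03-fold lower in ago2a and at least 5.6-fold lower in ago2c. CASP5, called on measured signals but dim in both ago2 lines, had bounds of only 1.48-fold in ago2a and 1.01-fold in ago2c. MYB36, the transcription factor that switches on the CASP genes, had 12.8% and 8.37%, against 32.6% in WT.

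The 2 members of that list that were not lower act earlier, in specifying the endodermis. SHORT-ROOT (SHR) had 70.6% in ago2a and 73.8% in ago2c, against 70.5% in WT. SCARECROW (SCR) had 88.5% and 89.4%, against 65.7% in WT. Both transcription factor genes thus had levels at or above WT, with differences of 0.03 ± 0.17 and 0.44 ± 0.25 (log2, SE, 2 arrays against 1; limma adjusted p = 0.94 and 0.66).

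Of 7 suberin genes tested, 4 were at least 2-fold lower in both lines, against 5.33% of all loci. The medians were -1.12 in ago2a and -1.97 in ago2c (log2), and 0.21 and -0.37 in mock seedlings. CYP86A1, a fatty acid hydroxylase of root suberin, had 79.4% in ago2a and 42.7% in ago2c, against 180.5% in WT. GPAT5, an acyltransferase of suberin synthesis, had 9.10% and 4.57%, against 22.6% in WT. CYP86B1, which acts on very long chains, had 12.4% and 7.54%, against 35.3% in WT, and the fatty alcohol-forming reductase gene FAR5 had 16.0% and 8.87%, against 34.8% in WT. In these 4 genes ago2c was the lower of the mutant lines. ASFT, which adds ferulate, was 2-fold lower only in ago2c, with 42.2% in ago2a and 28.4% in ago2c, against 66.6% in WT. KCS20 had 392.5% and 406.2%, against 373.0% in WT.

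Root hair genes had the lowest median of the lists, -1.87 in ago2a and -2.81 in ago2c (log2). In mock seedlings the medians were 0.3 in ago2a and -0.91 in ago2c, so ago2c was partly low without irradiation. Of 12 tested, 10 were at least 2-fold lower in both irradiated lines, against 5.33% of all loci. EXPA7, an expansin that loosens the wall of growing hairs, had 5.66% in ago2a and 2.84% in ago2c, against 29.9% in WT. PRP3, a proline-rich wall protein, had 12.04% and 6.25%, against 57.6% in WT. RSL4, the transcription factor that sets hair length, had 2.498% in ago2a and 0.729% in ago2c, where it was not well above background, against 8.69% in WT. ADF8, an actin depolymerising factor, had 5.91% and 4.25%, against 28.4% in WT. PRP1 was at least 11.2-fold lower in ago2c, where it was dim, and had 3.35% in ago2a, against 15.9% in WT.

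The other 2 members of the root hair list did not differ by 2-fold in both lines. RHD6, the factor upstream of RSL4, had 9.75% in ago2a and 2.05% in ago2c, against 8.21% in WT. LRX1 had 1.96% and 4.58%, against 5.204% in WT. The mutant lines thus disagreed on both genes, with RHD6 low in ago2c and LRX1 low in ago2a.

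Nutrient transport genes were less uniform. Of 14 tested, 5 were at least 2-fold lower and 1 higher in both lines, against 5.33% and 0.312% of all loci. The medians were -0.85 in ago2a and -1.27 in ago2c (log2). PHT1;1, a phosphate transporter, had 355.6% in ago2a and 145.0% in ago2c, against 1031% in WT. The iron uptake genes lay low together. IRT1, the iron transporter, had 1.89% in ago2a and 1.66% in ago2c, which was not well above background, against 6.95% in WT. FRO2, the ferric reductase, had 3.23% and 2.34%, against 8.47% in WT, and their regulator FIT1 had 15.6% and 13.0%, against 32.7% in WT. Mock ago2c was also low in IRT1 (1.91%, dim), FRO2 (3.30%) and FIT1 (18.8%), against 4.81%, 6.52% and 26.7% in mock WT. Mock ago2a had 5.37%, 8.03% and 27.9%. NRT2:1, a high-affinity nitrate transporter, ran the other way, with 2.15% and 3.14% against 0.891% in WT, where it was dim, and was at least 1.77-fold higher in ago2a and at least 2.58-fold higher in ago2c. In mock seedlings NRT2:1 had 1.11% and 0.998% in ago2a and ago2c, neither well above background, against 2.37% in WT.

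Of 4 root meristem genes tested, none was at least 2-fold lower in both lines. UPB1, a regulator of the transition from division to elongation, had 43.5% in ago2a and 28.4% in ago2c, against 72.0% in WT. PLT1 was not well above background on any irradiated array, and WOX5, the quiescent centre gene, had 1.47% and 1.54%, against 1.30% in WT. The levels of SMB, PLT1 and WOX5 lie close to background and give no order.

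**Figure D3:**
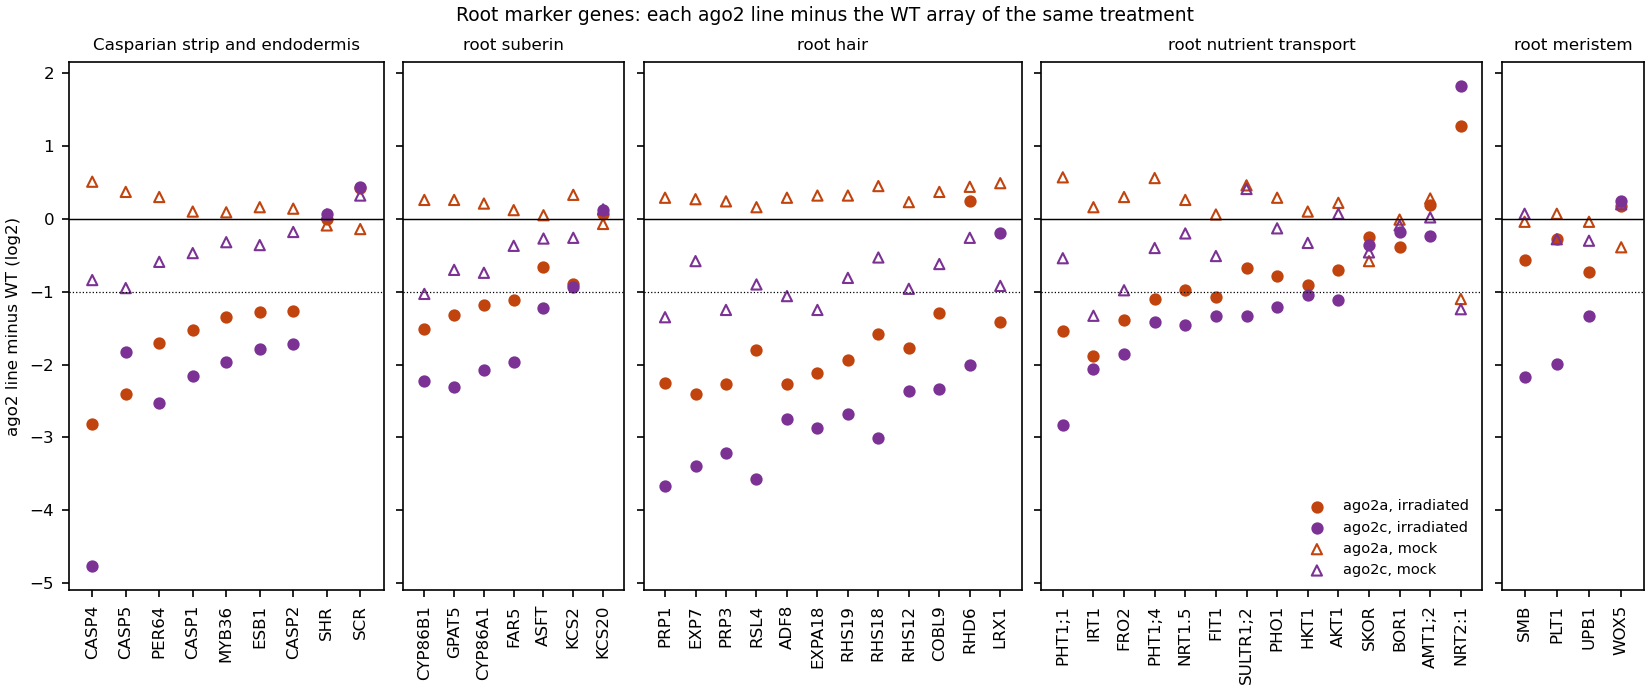
Log2 difference of each ago2 line minus WT for tested genes of the 5 root lists, with irradiated seedlings as filled circles, mock seedlings as open triangles, ago2a in orange and ago2c in purple. Filled circles lie below the dotted line at -1 for both lines in most root hair and Casparian strip genes, while SHR, SCR, KCS20 and WOX5 lie near or above 0 and NRT2:1 lies above 1.

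Over the 5 root lists, 27 of 47 tested genes (57.4%) were at least 2-fold lower in both lines, against 5.33% of all loci. Their levels summed to 2270% in ago2a and 1700% in ago2c, against 4250% in WT. In mock seedlings the sums were 4420% and 3060% in ago2a and ago2c, against 3690% in WT. In bulk tissue, fewer cells of a type and less RNA per cell cannot be told apart. Beside the root lists, 24 of 26 nuclear photosynthesis genes were higher in both lines, against 48.4% of all loci, and none at 2-fold. Their medians were 0.28 in ago2a and 0.56 in ago2c (log2), and the list median changed sign under 3 of 13 alternative settings. Their part in the root difference was not tested. Their summed level was 458000% in ago2a and 558000% in ago2c, against 379000% in WT, and 343000% and 514000% in mock ago2a and ago2c, against 386000% in mock WT. No seed storage gene of the 9 listed was bright enough to be tested.

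Because the array sets coincide with genotype after irradiation, the same genes were also read within a line. This reading reuses the irradiated arrays, and the lists were chosen with earlier results of these data known. It is therefore not independent of the comparison with WT. The irradiated and mock arrays of ago2c lie in one set and on one slide, as do those of WT, whereas those of ago2a lie in different sets. In ago2c 11 of 12 root hair genes were at least 2-fold below their mock level, against 1111 of all loci (5.51%), and in ago2a also 11, against 1493 of all loci (7.4%). In WT none of the 12 were, against 318 of all loci (1.58%). The medians of irradiated minus mock were -2.02 in ago2a, -1.73 in ago2c and 0.21 in WT (log2). For Casparian strip genes they were -1.65, -1.73 and -0.09, and for suberin genes -0.83, -1.03 and -0.01. For nutrient transport genes they were -0.84 in ago2a, -0.39 in ago2c and 0.22 in WT. With the array set as a block in the fit, the medians of ago2 minus WT after irradiation were -1.16 for root hair, -1.14 for Casparian strip, -0.63 for suberin and -0.52 for nutrient transport genes, all smaller in size than without it. The block rests only on mock ago2c against mock ago2a, the one group of arrays that spans both sets. These arrays also differ in line and slide, so blocked values here and below cannot tell array set from line or slide.

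Aquaporins, the water channels of the plasma membrane and vacuole, differed by that reading in their median, though not in every member. Of 15 tested, 4 were at least 2-fold lower in both lines, against 5.33% of all loci. The medians were -0.73 in ago2a and -0.58 in ago2c (log2). PIP2;4 had 18.5% in ago2a and 15.3% in ago2c, against 54.5% in WT, and its mock levels were 70.1% and 31.6%, against 65.7%. PIP2;2, printed as PIP2B in the gene table, had 278.9% and 268.8%, against 604.6% in WT, but mock ago2c, at 270.1%, was as low, and mock ago2a had 633.1%, against 606.6% in mock WT. PIP2;2 was thus low on the arrays of one set in both treatments. PIP2;5 was not well above background in either ago2 line and at least 4.1-fold lower in ago2a and 3.27-fold lower in ago2c. With the array set as a block the median was -0.07, and median irradiated minus mock was -0.78 in ago2a, -0.01 in ago2c and -0.09 in WT. At least 2-fold below mock were 3 of 15 in ago2c (20.0%), against 5.51% of all loci. In ago2a 4 were (26.7%), against 7.4% of all loci, and in WT 0, against 1.58%.

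Some members of wall-building families were low. Families were gathered by gene symbol and synonym, with 5.33% of all loci as background and no family member at least 2-fold higher. Of 28 xyloglucan endotransglucosylases (XTH), which cut and rejoin wall polymers, 9 were at least 2-fold lower in both lines, as were 7 of 24 expansins, 8 of 29 extensins and proline-rich proteins, 9 of 41 arabinogalactan proteins and 8 of 31 peroxidases. The peroxidases, gathered by name, need not all act in the wall, and the 8 include TPX2, a thioredoxin-dependent peroxidase. The medians of the lines' mean differences were -0.63 for XTH genes, -0.10 for arabinogalactan proteins and -0.22 for peroxidases (log2). Pectin methylesterases had a median of 0, with 2 of 13 at least 2-fold lower. XTH17 had 3.94% in ago2a and 4.35% in ago2c, against 19.2% in WT, and XTH20 had 8.10% and 4.47%, against 21.9% in WT. EXPA4 had 2.05% and 2.38%, against 13.9% in WT. Mock ago2c was low in EXPA4 as well, with 2.57%, while mock ago2a had 12.2%, against 10.7% in mock WT. XTH19 had 4.79% and 3.93%, against 12.9% in WT, and with the array set as a block its difference had the opposite sign (0.26, log2).

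Laccases, copper enzymes that polymerise lignin, were lower in both lines for 13 of 14 members, against 34.1% of all loci. At least 2-fold lower were 4 of them, against 5.33% of all loci. LAC3 had 41.4% in ago2a and 29.7% in ago2c, against 98.8% in WT. LAC12 had 3.65% and 3.93%, against 10.5% in WT, with mock ago2c at 3.95% and mock WT at 7.40%. Several laccases are targets of copper microRNAs. Of 12 such targets tested, counting MEMB12, a Golgi membrin gene silenced by an AGO2-bound small RNA, LAC3 and LAC12 were at least 2-fold lower in both lines. That is 16.7%, against 5.33% of all loci. The copper superoxide dismutase gene CSD1 had 319.4% and 370.9%, against 371.1% in WT. CSD2 had 111.4% and 161.8%, against 123.8% in WT, and MEMB12 had 7.49% and 7.58%, against 7.26% in WT. Both superoxide dismutase genes and MEMB12 thus lay within 1.31-fold of WT.

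Hypoxia genes gave small but uniform differences. Of 14 tested, 13 were lower in both lines, against 34.1% of all loci, and 3 at least 2-fold, against 5.33%. The medians were -0.83 in ago2a and -0.87 in ago2c (log2). PDC1 (AT4G33070), a pyruvate decarboxylase of fermentation, had 58.1% in ago2a and 54.0% in ago2c, against 145.8% in WT. ACO1, an ethylene-forming oxidase, had 33.3% and 26.3%, against 79.8% in WT, and SUS4, a sucrose synthase, had 110.8% and 89.5%, against 241.3% in WT. HB1, a haemoglobin, had 352.9% and 421.5%, against 784.4% in WT. In mock seedlings HB1 had 868.2% and 743.0% in ago2a and ago2c, against 838.3% in WT. The alcohol dehydrogenase gene ADH1 had 280.5% and 265.4% after irradiation, against 449.5% in WT, and PDC2 had 788.2% and 735.4%, against 762.7% in WT. With the array set as a block the median of the list was -0.72, and irradiated minus mock was -1.16 in ago2a, -0.97 in ago2c and -0.13 in WT.

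Among flavonoid genes 3 of 18 were at least 2-fold lower in both lines, against 5.33% of all loci. MYB12, the activator of flavonol synthesis, had 13.7% in ago2a and 6.89% in ago2c, against 34.2% in WT. Its target FLS1, flavonol synthase, had 105.1% and 87.5%, against 225.1% in WT, and TT4, chalcone synthase, had 205.5% and 170.5%, against 438.8% in WT. The anthocyanin regulator TT8 ran the other way, with 8.31% and 7.55% against 4.92% in WT. Of 21 jasmonate genes, AOC3, an allene oxide cyclase, and TAT3, a wound-responsive aminotransferase, were at least 2-fold lower, a share of 9.52% that lies near the 5.33% of all loci. TAT3 had 27.4% and 10.5%, against 67.3% in WT. AOC3 had 6.52% and 4.94%, against 18.6% in WT, and its difference was 0.34 (log2) with the array set as a block.

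Salicylic acid and defence genes set the mutant lines apart from each other, with medians of 0.32 in ago2a and -0.78 in ago2c (log2). The lines also lay apart in mock seedlings, with medians of 0.62 and -0.91. Of 19 members 1 was at least 2-fold lower in both lines (5.26%), near the 5.33% of all loci. This was PR1, the classical salicylic acid marker, with 2.57% in ago2a and 0.807% in ago2c, the second array not well above background, against 40.5% in WT. PR1 was as low in mock seedlings, with 3.33% in ago2a and 0.840% in ago2c, which was dim, against 31.2% in WT. ICS1, an enzyme on the main route to salicylic acid, had 92.2% in ago2a and 27.5% in ago2c, against 39.5% in WT, and ALD1, of pipecolic acid synthesis, had 24.9% in ago2a and 0.903%, which was dim, in ago2c, against 6.23% in WT. The lines thus lay on opposite sides of WT for both genes.

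Of the lower loci with 1 bright probe, PEL3 (AT5G23940) had the smallest adjusted p. PEL3, an acyltransferase needed for the cuticle, had 345.4% in ago2a and 380.1% in ago2c, against 9283% in WT. The mock arrays had 421.7% and 376.2% in ago2a and ago2c, and 453.9% in WT. A difference of -4.68 ± 0.18 (log2, SE, 2 arrays against 1; limma adjusted p = 0.24) thus rests on the irradiated WT array, which stood above the other 5 on this 1 probe. AT1G65570 was at least 9.56-fold lower in ago2a and 6.54-fold lower in ago2c. AT3G28899 was at least 4.48-fold lower in ago2a and 3.06-fold lower in ago2c, and was also dim in mock ago2a and ago2c. AT3G25960 was at least 4.87-fold lower in ago2a and 3.33-fold lower in ago2c, but mock ago2c had 5.61% where mock ago2a and mock WT were dim.

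Higher loci were few, and many were also high on the mock ago2c array. Of the 63, 23 were dim in irradiated WT, and 35 were at least 2-fold above WT in mock ago2c, against 2 in mock ago2a. The share of all loci for each mock line alone was not computed. Mock ago2c lies in the array set of both irradiated ago2 arrays and on another slide than WT. Its high values thus cannot be told apart from array set or slide. Only 17 had several bright probes, and in 3 of these every such probe was at least 2-fold higher. LNK2 (AT3G54500), a co-activator of the circadian clock, had 258.7% in ago2a and 235.1% in ago2c, against 73.5% in WT, a log2 difference of 1.75 ± 0.50 (SE, 2 arrays against 1; limma adjusted p = 0.62). In mock seedlings it had 134.7% and 289.5% in ago2a and ago2c, against 116.9% in WT. AT2G07725 had 914.0% and 1126%, against 393.8% in WT, with 336.5% in mock ago2a and 1228% in mock ago2c, against 331.4% in mock WT. With the array set as a block its difference was -0.50. AT3G21460 had 16.5% and 19.3%, against 7.48% in WT.

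Of 20 clock genes tested, LNK2 and PRR7, that is 2, were at least 2-fold higher in both lines, against 0.312% of all loci. At any size 16 were higher in both lines, against 48.4% of all loci. PRR7, a repressor of morning genes, had 488.4% in ago2a and 529.3% in ago2c, against 229.3% in WT, and 538.9% in mock ago2c. CCA1, the morning gene itself, had 99.5% and 69.1%, against 35.2% in WT. Its mock levels were 95.95% and 85.5% in ago2a and ago2c, against 73.8% in WT, so irradiated WT was the lowest array. LUX (PCL1), an evening gene, had 298.2% and 301.8%, against 439.3% in WT. The median of the list was 0.28 in ago2a and 0.30 in ago2c (log2), and 0.02 with the array set as a block.

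The highest single-probe loci had only bounds. RALFL19, a rapid alkalinization factor-like peptide gene, had 4.43% in ago2a and 4.42% in ago2c, against 0.681% in WT, where it was dim as in all mock arrays, and was at least 3.64-fold higher. AT5G28660 was at least 3.53-fold higher in ago2a and 2.53-fold higher in ago2c, and AT3G28230 at least 1.91-fold and 2.18-fold, both also dim in every mock array. AT5G46295 was at least 30.2-fold higher in ago2a and 11.6-fold higher in ago2c, with 43.1% and 16.6% against 1.43% in WT, and was as high in mock ago2a (55.6%) and mock ago2c (23.3%). ATCHX13, a cation exchanger gene, was at least 1.99-fold higher in ago2a and 3.32-fold higher in ago2c, but in mock seedlings it had 0.280% in ago2a, where it was dim, and 1.90% in ago2c, against 4.40% in WT. AT5G27889 was at least 1.18-fold higher in ago2a and 1.61-fold higher in ago2c. SPA2, a suppressor of light signalling with 3 probes on the array, was named after its values were seen. Its brightest probe had 69.7% in ago2a and 76.4% in ago2c, against 18.17% in WT, with mock ago2c at 74.5% and mock ago2a at 15.0%. SPA2 was not among the loci whose several bright probes were all at least 2-fold higher.

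Damage response genes did not part the genotypes by 2-fold. Of 20 genes that depend on SOG1, none was at least 2-fold different in both lines, with medians of 0.30 in ago2a and 0.10 in ago2c (log2), against 0.06 and 0.07 for all loci. SMR7, an inhibitor of cell division, had 1041% in ago2a and 759.4% in ago2c, against 829.5% in WT. BRCA1, of recombination repair, had 209.9% and 193.8%, against 166.6% in WT. TK1a, thymidine kinase, had 722.8% and 645.1%, against 950.8% in WT. The KU80 end-joining gene had 53.7% and 55.8%, against 42.7% in WT. The mean differences of the 20 members lay between -0.51 (GEX1) and 0.37 (SMR4, AT5G02220). The medians of irradiated minus mock were 2.42 in ago2a, 2.48 in ago2c and 2.16 in WT.

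The other small RNA genes had no member at least 2-fold different, with medians of 0.19 in ago2a and 0.27 in ago2c (log2) over 25 genes. AGO1, the main microRNA effector, had 352.9% in ago2a and 356.6% in ago2c, against 393.7% in WT. DCL1, which cuts microRNA precursors, had 167.8% and 172.2%, against 117.1% in WT, with 167.9% in mock ago2c and 110.3% in mock ago2a. SGS3, which helps make small interfering RNA, had 113.0% and 113.2%, against 80.3% in WT.

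No member of the photosynthesis, abscisic acid, replication, G2/M, heat shock, antioxidant, senescence and shoot meristem lists was at least 2-fold different in both lines. Abscisic acid genes had medians of 0.41 in ago2a and 0.35 in ago2c (log2), with 15 of 24 higher in both, against 48.4% of all loci. ABI2, a phosphatase that dampens abscisic acid signalling, had 123.2% and 125.5%, against 69.4% in WT, and the dehydrin gene ERD10 had 2860% and 2739%, against 1609% in WT. LTI30, another dehydrin, ran the other way, with 96.7% and 66.7% against 181.1% in WT. Replication genes had medians of 0.12 and 0.36, G2/M genes 0.05 and 0.36, and antioxidant genes 0.10 and 0.22. CDKB2;2, a mitotic kinase gene, had 5.38% and 7.17%, against 12.6% in WT, and CDC20.1, an activator of mitotic exit, had 92.2% and 125.4%, against 64.3% in WT. Rubisco activase (RCA) had 18490% and 20480%, against 13140% in WT, with 11400% in mock ago2a and 18120% in mock ago2c, against 13030% in mock WT. The photosynthesis median was 0.02 after quantile normalization and -0.15 with the array set as a block. The medians of heat shock, salicylic acid, jasmonate, senescence, shoot meristem, replication, antioxidant, photosynthesis and SOG1-dependent genes changed sign under 2 to 8 of 13 alternative settings and have no settled direction.

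**Figure D4:**
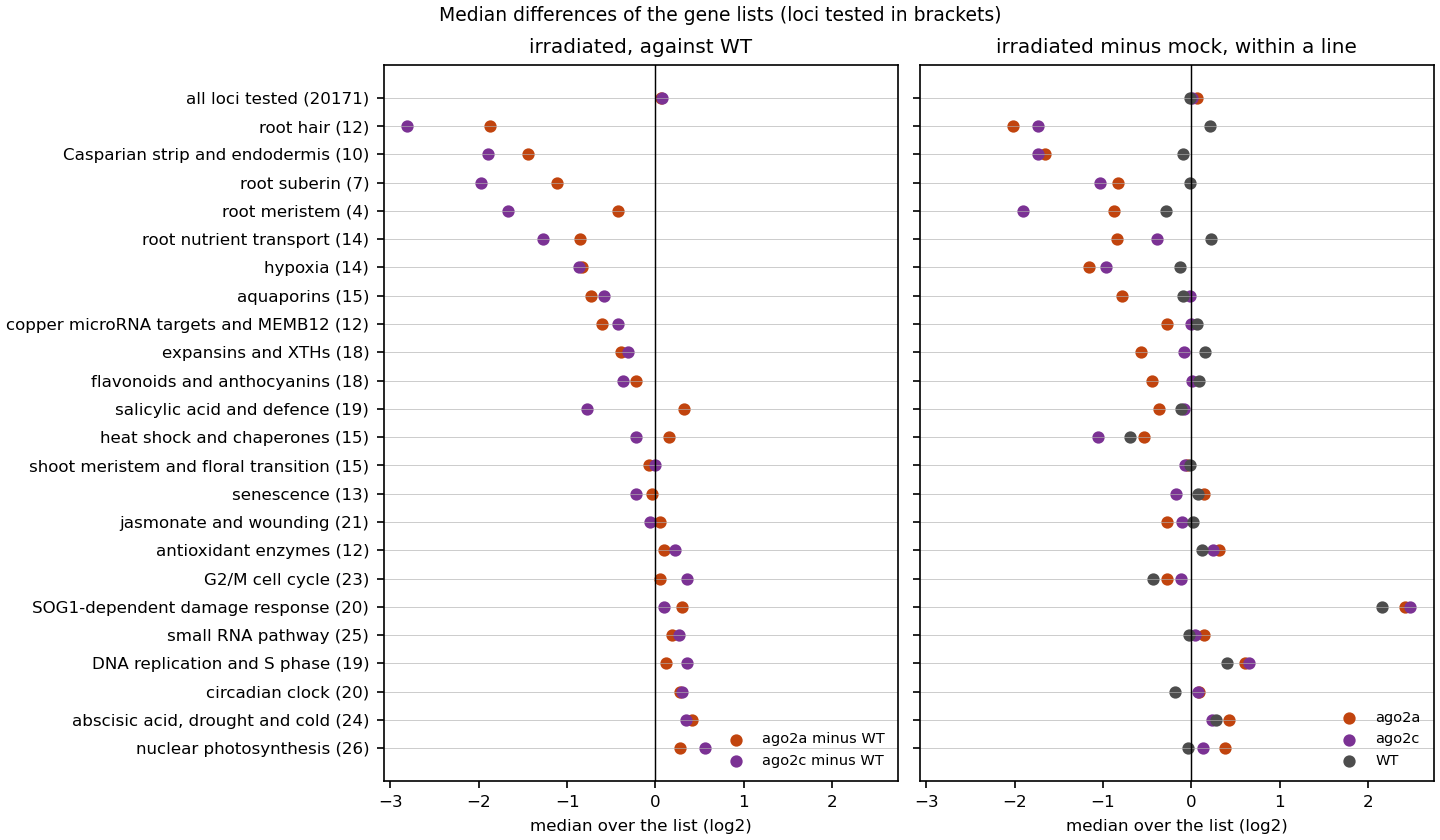
Median log2 difference of each gene list, with the number of tested loci in brackets, for the irradiated ago2 lines minus irradiated WT (left) and for irradiated minus mock within each line (right). Root hair, Casparian strip and suberin genes lie lowest on the left, and on the right they lie between -2.02 and -0.83 in ago2a and ago2c and between -0.09 and 0.21 in WT, and the SOG1-dependent genes lie above 2 on the right in all 3 lines.

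Set beside mock seedlings, the irradiated comparison held more loci. In mock seedlings 23 loci (0.114%) were at least 2-fold higher and 53 (0.263%) lower than WT in both ago2 lines. The irradiated and mock comparisons share no array, but mock ago2a and mock WT lie in one array set while mock ago2c lies in the other. Of the 1076 loci lower after irradiation, 258 were at least 2-fold lower in mock ago2c, 23 in mock ago2a and 16 in both. For each mock line alone the share of all loci was not computed. The median difference of these 1076 was 0.21 in mock ago2a and -0.57 in mock ago2c (log2). The test of the difference itself, irradiated minus mock in ago2 against WT, called 0 loci (0%) by limma, with a smallest adjusted p of 0.94 and 473 loci at an unadjusted p under 0.05. By chance alone 1009 loci would be expected at that unadjusted cut. In ago2c, whose arrays share a set, 600 of the 1076 were at least 2-fold below mock, against 5.51% of all loci. In ago2a 856 were, against 7.4% of all loci, and in WT 12, against 1.58%. These counts reuse the irradiated values that chose the loci, which favours low ago2 and high WT values, and so they describe the loci and support nothing; the same holds for the higher loci. WT was at least 2-fold above mock in 68 of the 1076, against 257 of all 20171 loci. For most of the 1076 the WT level was thus near its mock level. Of the 63 higher loci, 12 were at least 2-fold above mock in ago2c, against 256 of all 20171 loci. In ago2a 41 were, against 280 of all loci.

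The probe chosen affected how many loci were counted and which. By the brightest probe of the 5615 multi-probe loci, 101 were lower and 17 higher at 2-fold in both lines. By the median of their other, dimmer probes 598 were lower and 103 higher. Over all 20171 loci tested, 1076 (5.33%) were lower and 63 (0.312%) higher. The count of lower loci thus depended strongly on the brightness of the probe. Lower in both readings were 81 loci, which is 80.2% of the first and 13.5% of the second list, and higher in both readings were 3. Of the 1076 lower loci, 909 had 1 bright probe, and 726 were well above background on all 3 irradiated arrays. In both ago2 lines 205 were dim, in ago2c alone 136 and in ago2a alone 9. The count near the threshold was dense, with 256 lower loci between 2 and 2.2-fold and 287 just outside, between 1.8 and 2-fold.

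The lower loci were shorter genes than the rest, with a median length of 1751 bases, against 2339 bases for all loci tested, and the higher ones had 1710 bases. They were also dimmer in mock seedlings, with a median level of 11.1%, against 65.9% for all loci tested and 4.56% for the higher ones. In 80.7% of the lower loci the array held 1 probe, against 67.8% of all loci tested. The lower loci lay on every nuclear chromosome, at 5.05% of tested loci on chromosome 1, 5.83% on 2, 4.73% on 3, 6.37% on 4 and 5.17% on 5. Among them, 221 (20.5%) stood next to another lower locus in the order of tested genes, and 16 runs held at least 3. How many would do so in a random order was not computed, so these counts only describe the loci. The longest, of 7 loci on chromosome 4, ran through AZI1 and EARLI1, lipid transfer-like protein genes, to AIR1, a gene named for its induction by auxin in roots. AZI1, which acts in systemic immunity, had 5.82% in ago2a and 7.46% in ago2c, against 21.6% in WT. AIR1 had 17.5% and 5.998%, against 47.2% in WT. Near-identical neighbours of this kind can share signal on a probe.

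Another run of 5 on chromosome 4 held CYP705A4, AT4G15390, CYP702A5, CYP702A6 and BIA1, and a run of 3 close by held PEN1, a triterpene synthase gene. CYP702A5 had 29.5% in ago2a and 11.8% in ago2c, against 93.8% in WT, and AT4G15390 had 90.2% and 45.1%, against 305.6% in WT. Cytochrome P450 genes as a family had 27 of 171 at least 2-fold lower in both lines, against 5.33% of all loci. The nitrilase genes NIT2, NIT1 and NIT3, neighbours on chromosome 3, were a further run. NIT2 had 45.3% and 38.2%, against 176.1% in WT, and NIT1 had 542.2% and 561.8%, against 1412% in WT. In mock seedlings NIT1 had 1118% in ago2a and 411.4% in ago2c, against 1038% in WT.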

How the data were processed

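Total RNA was labelled with Cy3 and hybridised to 1-colour Agilent arrays, with 1 array a condition, according to the labels. The deposited files of the scanner give a spot intensity extracted with Feature Extraction 11.0.1.1 and corrected for background by the software, per the file headers. The authors' deposited series matrix holds a linear ratio of unstated scale and served as an alternative. Its column medians lay between 0.878 and 1.06, and its values were the processed signal over the array median and a per-probe value of unknown origin.

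Flagged outlier spots were dropped, which removed 53 of 43603 probes. Values were log2 processed signals, averaged over the spots of a probe, minus the 75th percentile of the array. Through RefSeq accessions (TAIR10.1), 34309 probes were matched to 25388 loci and 9241 were not. Probes entered when well above background on at least 2 of 6 arrays, and the brightest stood for each of 20171 loci. limma 3.58.1 in R 4.3.3 fitted 4 group means (2 residual and 2.06 prior degrees of freedom), with Benjamini-Hochberg adjustment at 0.05. The fit was tested on simulated data. With 1 WT array, the SE assumes that it varies as the ago2 lines do. Of the 2 residual degrees of freedom, 1 comes from mock ago2a against mock ago2c, which lie in different array sets. This can widen the SE, so the lack of calls does not show that no locus differs. A 2-fold call needed both lines past the threshold and the brighter side well above background. Array sets were read from the first principal component of probe differences within loci.

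Named genes were the 10 highest and lowest at 2-fold among loci whose several probes agreed (3 higher qualified), the 6 highest and lowest with 1 probe, up to 4 members of each list, AGO2 and AGO3, ranked by the smaller of both lines' differences, and every locus passing limma (none). Alternatives changed background correction, scaling, probe choice, filter, prior, slide or array set as a block, and left out 1 ago2 array. Further list members, families and runs were named as examples after their values were seen. Members and lists were chosen with earlier results of these data known. Of 403 list loci 376 were tested. The values of 1 list member are not reported here.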

Additional observations from a re-analysis of the deposited data

How the results depend on the processing

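The count of 0 loci by limma became 1 with normexp (PEL3, -4.72, adjusted p = 0.033) and was 0 under the other 15 alternatives, and the interaction count was 0 under all 15 tried. The higher loci numbered 24 with normexp, 95 with quantile normalization, 109 with median scaling and with the authors' values, 38 with probes bright on all 6 arrays, 103 by the other probes and 14 at 3-fold. The lower loci numbered 395 with normexp, 710 with probes bright on all 6 arrays, 598 by the other probes and 321 at 3-fold. Leaving out 1 ago2 array gave 173 to 253 higher loci (without ago2a and without ago2c) and 1212 to 1988 lower ones (without ago2c and without ago2a). The cause of these moves was not tested, except that fewer arrays or loci enter some settings. Other settings kept the counts within 1.5 times, among them 786 and 797 lower loci with quantile and median scaling.

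With the array set as a block AT2G07725 had -0.5, PIP2B 0.09, AOC3 0.34 and XTH19 0.26, each reversed. The block rests on mock ago2c against mock ago2a, which also differ in line and slide. Of 23 list medians 11 kept their sign under all 13 alternatives, among them Casparian strip (-1.9 to -0.47), suberin (-1.97 to -0.63), root hair (-2.81 to -1.16, 12 alternatives), nutrient transport (-1.41 to -0.52), hypoxia (-1.61 to -0.7) and aquaporin genes (-1.29 to -0.07). Root meristem genes had 0.07 with normexp. By the other probes of a locus the damage response median was -0.41, the small RNA median -0.21 and the replication median -0.62. Signal close to background limits loci under about the level of the dimmest bright probe, and 1 array per condition limits the rest. No paired analysis was possible because the labels carry no shared replicate numbers.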
